A study of Mus musculus with 36 samples.

Results

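Neurons release transmitter through a shared set of proteins, and the mRNA levels of 42 of these genes were followed in single neurons of the mouse midbrain. The genes were taken from a list of named SNARE proteins, calcium sensors, complexins, synaptic vesicle proteins, active zone proteins and Rab3 proteins with an effector. All 42 were found among the 55359 genes of the deposited expression table, which covers 36 neurons. Every neuron belongs to a clone, the progeny of a single radial glia progenitor that was marked on embryonic day 12, and 2 neurons of each of 18 clones were sequenced. All animals carried M11GTTG, the cassettes of MADM (mosaic analysis with double markers, which colours the daughters of a dividing cell), in a mixed C57/Bl6, FVB and CD1 background. The recombinase was Fz10-CreER in 11 clones, with 15 cells in sSC and 7 in dSC. It was Sox2-CreER in 7 clones, with 7 cells in sSC, 5 in dSC and 2 in PAG. These tissue labels are read here as the superficial superior colliculus, the deep superior colliculus and the periaqueductal grey. The age at which each cell was collected is not given in its labels. Both drivers act in progenitors, so the neurons are the labelled descendants of cells that used the driver, and no unlabelled neurons serve as a control. The labels name no animals, so clones may share an animal. In the tissue and driver comparisons, p-values describe the spread between clone means. Along transmitter balance and Pvalb they describe the spread between single cells, with clone entered as a correlation of 0.04 and -0.006. In the clone comparison, differences among clones are set against the spread between cells of a clone.

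A nerve terminal stores transmitter in vesicles that dock and are primed at the active zone. The SNARE proteins of the vesicle and the plasma membrane zip together to fuse the membranes, complexins clamp and promote this step, and synaptotagmins trigger it when calcium enters. RIM, Munc13, Bassoon and Piccolo organise the site of release, synapsins hold the reserve of vesicles, and Rab3 proteins guide vesicles to the membrane. In the superior colliculus, which turns visual and other sensory input into orienting movements, both glutamatergic and GABAergic neurons depend on this machinery.

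All values are the deposited expression signal per gene and cell, named by the authors as a TPM of exon plus intron. The name implies scaling to length, but the formula is not given in the sources used here, so levels of different genes are set side by side under that reading. The read depth behind a value is unknown, and a 0 may stand for an mRNA that was present and not captured. Detection of a gene means a value of at least 1. There were between 2661 and 16769 detected genes per cell (median 12058), and the lowest library was the clone B sSC cell. A set of 32 gene models, none of them a release gene, took from 16.3% to 65.9% of the summed signal of a cell. All 8 neuron markers had a median of 1 or more, and their summed signal ran from 1025 to 6065 with a median of 3134. Rbfox3 (the nuclear protein NeuN), Map2, Nefl and Nefm were detected in 36 of 36 cells, Stmn2 and Eno2 in 35, Elavl4 in 34 and Tubb3 in 33. Glial transcripts were also present in every library. Most oligodendrocyte, microglia and astrocyte markers met the same median of 1 or more, so that measure does not tell neurons from glia. The summed signal of 7 oligodendrocyte markers ran from 1149 to 23558 (median 3737), with 7 of 7 medians at 1 or more. That of 9 microglia markers ran from 85.4 to 13101, with 9 of 9 medians at 1 or more. That of 9 astrocyte markers ran from 152 to 3062, with 8 of 9 medians at 1 or more and Gjb6 at a median of 0. All 5 endothelial markers (Cldn5, Flt1, Pecam1, Ly6c1 and Slco1a4) and both markers of oligodendrocyte precursors (Pdgfra and Cspg4) had a median of 0.

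The release genes were expressed broadly in these neurons. Per cell, between 21 and 41 of the 42 genes were detected, with a median of 37.5. In all, 11 genes were detected in every cell and 32 in at least 30 cells. Their summed signal ran from 0.179% to 0.760% of a cell's total, with a median of 0.455%. The median level was 100 or more for 14 genes, from 10 to under 100 for 19 and under 10 for 9. The clone B sSC cell had the fewest release genes, 21, and the lowest sum.

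**Figure D1:**
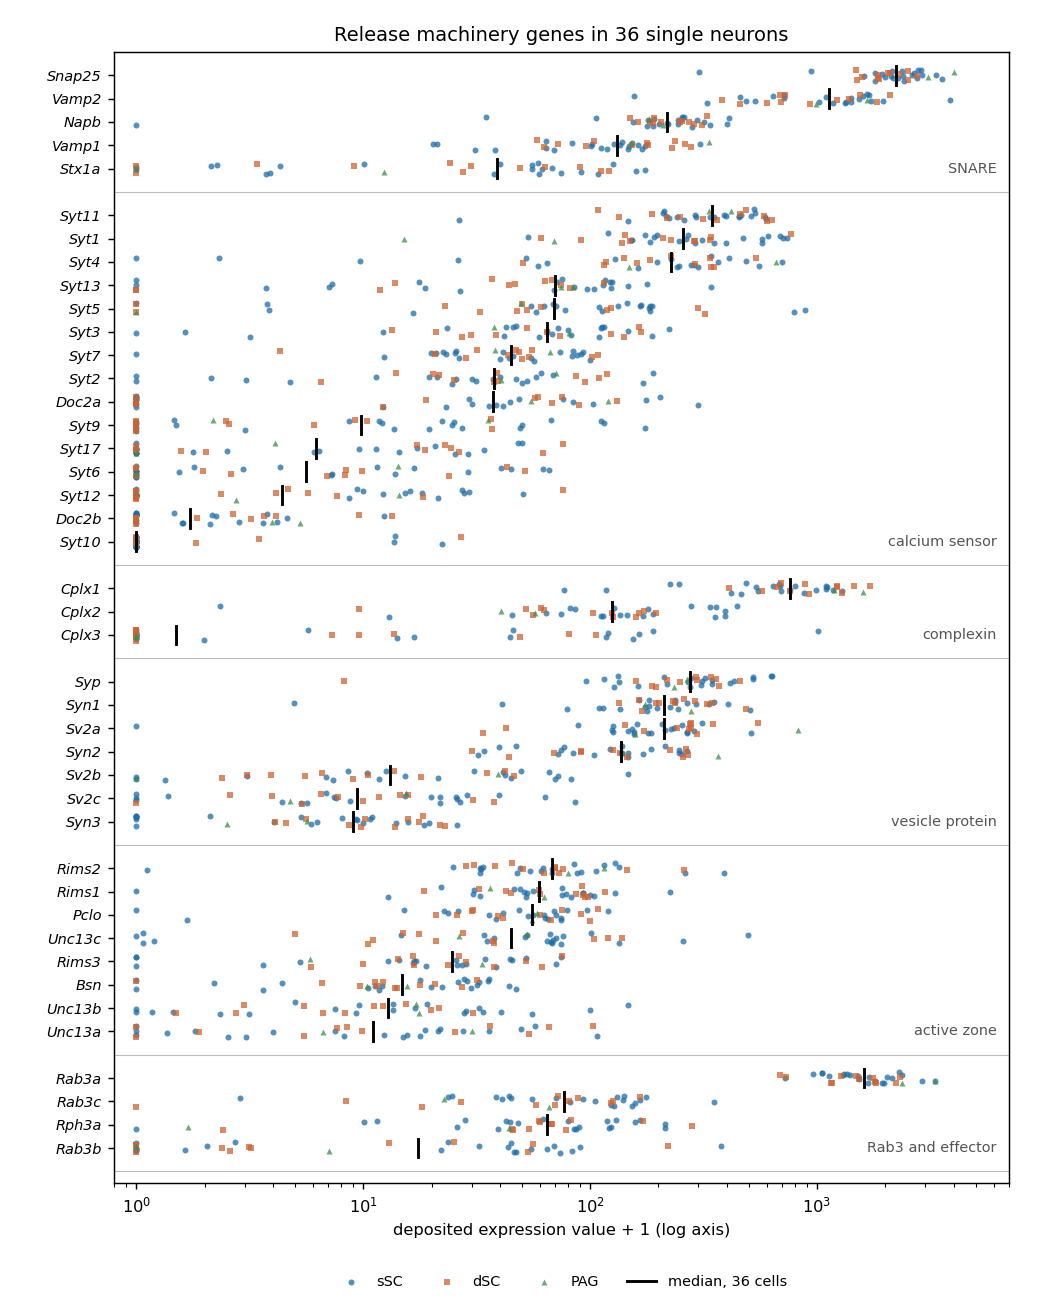
Deposited expression value plus 1 on a log axis for the 42 release genes in 36 single neurons, grouped by role. Each point is 1 cell coloured by tissue (22 sSC, 12 dSC, 2 PAG) and the black bar is the median over the 36 cells. Snap25, Rab3a and Vamp2 had the highest medians, and Syt10 lay at 0 in most cells.

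Among the SNARE genes, Snap25 and Vamp2 were high in nearly every neuron. Snap25, the plasma membrane SNARE that also marks neurons, ran from 299.8 to 4008 with a median of 2219. Its median was 2320 in sSC and 1964 in dSC, and the PAG cells of clones D and H stood at 4008 and 3085. Its lowest value belonged to the clone B sSC cell, and the tissues overlapped. Vamp2 (synaptobrevin 2, the vesicle SNARE) ran from 155 to 3862 with a median of 1133. Its median was 1253 in sSC and 827 in dSC, with 1665 and 987 in the PAG cells of clones D and H. Vamp1, the related vesicle SNARE, spanned 19.3 to 333 (median 130), and Vamp2 exceeded it in 36 of 36 cells. Vamp1 overlaps the coding genes Tapbpl and Cd27 on the opposite strand, and whether counting used strand is not given in the sources used here. Stx1a (syntaxin 1A, the second plasma membrane SNARE) was lower and uneven, from 0 to 174 with a median of 37.8. It was detected in 31 cells and listed at 0 in 5. Napb, an adaptor that takes SNARE complexes apart after fusion, spanned 0 to 408 (median 218), and it was detected in 35 cells.

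The synaptotagmin and Doc2 genes are grouped here as calcium sensors by family, which does not mean that each binds calcium. Of them, Syt11, Syt1 and Syt4 had the highest medians. Syt1, the fast calcium sensor of release, ran from 14.2 to 768 with a median of 254. Its median was 279 in sSC and 218 in dSC, and the PAG cells of clones D and H stood at 14.2 and 68.0. Both PAG cells lay near the bottom of the range, with the clone D cell lowest of all. Syt2, the other fast sensor, spanned 0 to 187 (median 36.5), and Syt1 exceeded it in 33 of 36 cells. The 3 exceptions were the clone B sSC cell and both PAG cells. The coding gene Ppp1r12b overlaps Syt2 on the opposite strand. Syt11, which does not bind calcium in the way Syt1 does, had a median of 344 and a range of 25.4 to 634. Syt4, found on dense core and other vesicles, had a median of 226 and a range of 0 to 701. Syt1 was above Syt4 in 19 of 36 cells and above Syt11 in 13, so these 3 genes held no fixed order.

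Syt13, Syt5, Syt3, Syt7 and Doc2a formed the middle of this class, with medians of 69.3, 68.5, 63.7, 43.7 and 36.2. Syt7 is a slow, high-affinity calcium sensor, and it was detected in 35 cells. Syt5 had the widest upper range of the class, reaching 886 in the clone L sSC cell. Syt9, another fast sensor, had a median of 8.80, and Syt17, Syt6 and Syt12 had medians of 5.21, 4.60 and 3.38. Doc2b, a high-affinity sensor linked to spontaneous release, had a median of 0.730 and was detected in 17 cells. Syt10 was detected in 5 cells, reached 26.03, and alone of the 42 genes missed the filter of a value of 1 or more in 25% of cells, so 41 genes were tested below.

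The 3 complexins lay at very different levels. Cplx1 ran from 75.5 to 1709 with a median of 759. Its median was 681 in sSC and 902 in dSC, and it was detected in 36 of 36 cells. Cplx2 spanned 1.33 to 443 (median 124), and Cplx1 exceeded it in 34 of 36 cells, the clone F and H sSC cells being the exceptions. Cplx3, known from ribbon synapses of the retina and from some cortical neurons, was detected in 17 cells and listed at 0 in 18, so that its median was 0.4931. It reached 1014 in the sSC cell of clone I, where it exceeded Cplx1. It also exceeded Cplx2 in 4 cells, all in sSC, from clones C, I, K and N. GENCODE M21 lists no other gene on the opposite strand in the span of Cplx1, Cplx2 or Cplx3.

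Because Cplx3 was detected in 17 cells and its 2 relatives in all 36, the 250 bases upstream of each RefSeq start site are shown, 5′ to 3′ on the gene's strand. They come from RefSeq on GRCm38.p6, at chr5:108550028-108550277 on the minus strand, chr13:54302306-54302555 on the plus strand and chr9:57606282-57606531 on the minus strand. Capitals mark a GC box (GGGCGG on either strand).
Cplx1: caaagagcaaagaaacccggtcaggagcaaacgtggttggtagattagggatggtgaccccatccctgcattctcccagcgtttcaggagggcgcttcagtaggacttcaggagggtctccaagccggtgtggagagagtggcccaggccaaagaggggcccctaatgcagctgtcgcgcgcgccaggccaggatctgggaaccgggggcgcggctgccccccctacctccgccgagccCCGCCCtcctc
Cplx2: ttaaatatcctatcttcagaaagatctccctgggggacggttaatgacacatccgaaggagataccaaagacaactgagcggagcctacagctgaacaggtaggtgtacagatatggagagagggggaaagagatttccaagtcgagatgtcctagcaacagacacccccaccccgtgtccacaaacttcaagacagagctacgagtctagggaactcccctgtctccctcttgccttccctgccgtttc
Cplx3: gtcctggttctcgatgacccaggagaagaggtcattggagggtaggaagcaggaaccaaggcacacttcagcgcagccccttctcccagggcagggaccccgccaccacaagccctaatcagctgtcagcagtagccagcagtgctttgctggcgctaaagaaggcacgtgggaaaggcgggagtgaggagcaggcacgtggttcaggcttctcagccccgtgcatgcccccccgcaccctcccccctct
The window of Cplx1 held 1 GC box and those of Cplx2 and Cplx3 held 0. Their GC content was 64.8%, 50.8% and 62.8%. None of the 3 windows held the core of a cAMP response element (CRE, TGACG) or a TATA box (TATAAA) on either strand. A RefSeq promoter was matched for 30 of the 42 release genes, with 41 start sites in all. A GC box lay in 26 of these 41 windows (63.4%), against 32.7% of all 32851 windows of that length. The CRE core lay in 17.1% against 17.8%, and the TATA box in 7.32% against 12.4%. Median GC content was 60.8% for the windows of release genes and 52.4% for all windows. A match describes these letters and is no evidence that a factor binds there, and windows of the same gene can overlap.

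Vesicle membrane and vesicle pool genes were led by Syp, Syn1 and Sv2a. Syp (synaptophysin, an abundant vesicle membrane protein) ran from 7.25 to 629 with a median of 275. Its median was 293 in sSC and 268 in dSC. Syn1 and Syn2, the main synapsins, had medians of 212 and 136, and Syn1 was the higher in 27 of 36 cells. Syn3 was far lower, with a median of 7.97. The coding genes Araf and Timp1 overlap Syn1, Timp4 overlaps Syn2 and Timp3 overlaps Syn3, each on the opposite strand. The SV2 proteins are vesicle glycoproteins, and Sv2a also binds the antiepileptic drug levetiracetam. Sv2a ran from 0 to 821 with a median of 210, while Sv2b and Sv2c had medians of 12.1 and 8.36. Sv2a exceeded each of them in 35 of 36 cells, and the clone B sSC cell, where Sv2a was listed at 0, was the exception to both.

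Active zone genes lay at moderate levels. The RIM genes Rims2 and Rims1 had medians of 67.1 and 58.6, and Rims1 was above Rims2 in 13 of 36 cells. Pclo (Piccolo) and Bsn (Bassoon), the large scaffold proteins of the active zone, had medians of 54.5 and 13.9, and Rims3 had one of 23.6. The Munc13 genes prime vesicles. Unc13c had a median of 43.6 and reached 494 in a clone N sSC cell, while Unc13b and Unc13a had medians of 11.9 and 10.1. Unc13c was above Unc13a in 28 of 36 cells. The coding gene Colgalt1 overlaps Unc13a on the opposite strand.

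Rab3a was the second highest release gene and the steadiest on the log scale. It spanned 682 to 3319 (median 1603) and an SD of 0.57 on the log2(value + 1) scale over 36 cells, next to 0.63 for Snap25. Mpv17l2 overlaps Rab3a on the opposite strand. Rab3a exceeded Rab3c in 36 of 36 cells. Rab3c had a median of 75.5, Rph3a (rabphilin, an effector of Rab3) one of 63.7 and Rab3b one of 16.5. Rab3b was detected in 26 cells and reached 377 in the clone J sSC cell. Across the 36 cells, the Spearman correlation of a release gene with the number of detected genes had a median of 0.280, against 0.279 over all 14902 genes that met the filter. Vamp2 had the lowest at -0.18 and Bsn the highest at 0.56.

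The first comparison asked whether neurons of the superficial and deep colliculus differ in release genes. No release gene passed the threshold between 16 sSC and 11 dSC clone means. By limma with Benjamini-Hochberg adjustment, 0 of 41 release genes and 0 of 14613 genes (0%) had an adjusted p under 0.05. At an unadjusted p under 0.05 there was 1 release gene of 41, Syt9, against 754 genes of all tested (5.16%), of which 98 were positive like Syt9 (0.671%). Syt9 had a clone mean of 3.70 ± 2.48 (SD, n = 16) in sSC and 1.84 ± 2.10 (SD, n = 11) in dSC on the log2(value + 1) scale. The difference was 1.86 with a standard error of 0.89 (limma adjusted p = 0.946), and Syt9 was higher in the sSC cell in 6 of the 9 clones that span both tissues. Its cell values ran from 0 to 174 in sSC and from 0 to 35.8 in dSC, so the tissues overlapped.

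The other differences of smallest p were also within the spread of clones. Rab3b and Rab3c differed by 1.26 (SE 0.98) and 0.88 (SE 0.72), sSC minus dSC, each with a limma adjusted p of 0.971. Syn3 differed by -1.28 (SE 0.65, limma adjusted p = 0.961). Cplx1 differed by -0.82 (SE 0.44) and Syt2 by -1.09 (SE 0.77), each with a limma adjusted p of 0.971. Cplx1 was higher in the dSC cell in 7 of 9 clones. Vamp2, which differed by 0.22 over all clone means (SE 0.40), was higher in the sSC cell in 8 of 9 clones, and Syt5 in 7. Syt3 was higher in the dSC cell in 8 of 9 clones. Stx1a, Vamp1, Syn2, Sv2c, Unc13a and Pclo were so in 7, like Cplx1. In the fit with clone as a block over these 9 clones, 10 of 41 release genes were positive, beside 23.1% of all genes. Of the remaining central genes, Snap25 differed by 0.03 (SE 0.34), Syt1 by 0.42 (SE 0.48) and Cplx2 by 0.19. Vamp1 differed by -0.68 and Stx1a by -0.19, and the vesicle genes Syp, Sv2a, Sv2b and Sv2c by 0.46, -0.47, 0.23 and -0.02. None of them passed, which does not show that the tissues are alike.

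The median difference of the 41 release genes was -0.19, beside -0.31 for all 14613 genes, and 16 of 41 were positive beside 32.7% of all genes. Other scalings placed the median of all genes between -0.56 (pseudocount 0.1) and 0.07 (detected genes as a covariate), so each difference is read against that shift. Without the clone B sSC cell the median of the release genes was 0.01 and that of all genes -0.14. With clone as a block, over the 9 clones with both tissues, 0 release genes and 1 gene of all passed, and the medians were -0.58 and -0.67. The summed oligodendrocyte markers ran from 1446 to 23558 in sSC (median 3737) and from 1149 to 8202 in dSC (median 4928). The summed microglia markers ran from 186 to 11193 in sSC (median 1753) and from 85.4 to 13101 in dSC (median 2777). The medians of the astrocyte sum were 1124 in sSC and 1821 in dSC, and those of the endothelial sum 1.73 and 21.0, and the part of these transcripts in the tissue differences was not tested. The 2 PAG cells were left out of the test.

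**Figure D2:**
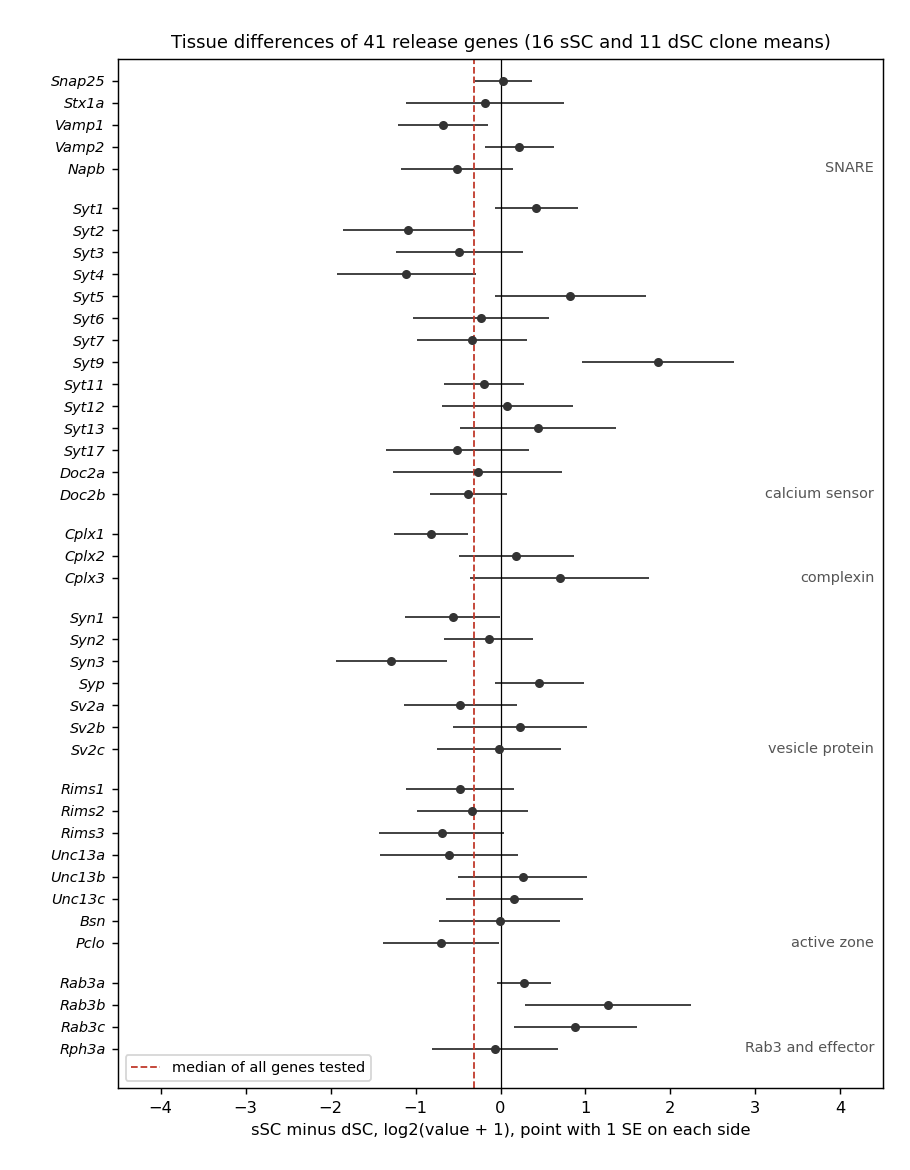
Differences of 41 release genes between 16 sSC and 11 dSC clone means, sSC minus dSC on the log2(value + 1) scale, with 1 standard error on each side. The dashed line marks the median of all genes tested at -0.31. No release gene had a limma adjusted p under 0.05, and Syt9 stood farthest to the right at 1.86.

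The driver comparison asked whether sSC neurons labelled through Fz10-CreER and Sox2-CreER differ. None of the 41 release genes passed between 11 Fz10-CreER and 5 Sox2-CreER clone means by limma, nor did any of 14320 genes (0%). At an unadjusted p under 0.05 there was 1 of 41 release genes, Syt6, against 587 genes of all (4.1%). Syt6 had a clone mean of 1.33 ± 1.76 (SD, n = 11) in Fz10-CreER clones and 4.04 ± 0.89 (SD, n = 5) in Sox2-CreER clones on the log2(value + 1) scale, a difference of -2.70 (SE 1.00, limma adjusted p = 1.00). Syt9 and Syt12 differed by -1.98 (SE 1.26) and -1.65 (SE 1.03), and Syt2, Syt7 and Cplx1 by 1.95 (SE 1.18), 1.12 (SE 1.05) and 0.85 (SE 0.79), all with limma adjusted p = 1.00. The median over the 41 genes was -0.21, beside -0.38 for all genes, and 13 of 41 were positive beside 34.03%. With detected genes as a covariate these medians were 0.16 and 0.13, and without clone H they were -0.73 and -0.78. Without clone H, the differences of Syt7, Cplx1 and Syt2 were 0.06, 0.32 and 1.23, with limma adjusted p of 0.992, 0.940 and 0.874. The number of genes passing overall went from 0 to 5 without clone H and to 1 without clone F, and 0 release genes passed in either.

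The clone comparison asked whether the 2 neurons of a clone hold similar levels. By limma's moderated F test over 16 clones (32 cells, tissue as a covariate), 0 of 41 release genes passed, against 3 of 15132 genes (0.0198%). At an unadjusted p under 0.05 there were 3 of 41, Cplx2, Rph3a and Sv2c, against 1180 of all genes (7.8%). The correlation between the cells of a clone, after removing tissue means, was 0.58 for Rph3a (limma adjusted p = 0.566). It was 0.53 for Sv2c (limma adjusted p = 0.618) and 0.46 for Cplx2 (limma adjusted p = 0.538). In clone L both cells were low in Rph3a, at 0 and 1.41, while both cells of clone R were high in Sv2c, at 84.4 and 62.3. Both cells of clone B were low in Cplx2, at 8.56 and 1.33, and without them the correlation for Cplx2 was -0.03. Each p in this comparison comes from the F test for differences among clones, and the correlations themselves were not tested. Among genes with a negative correlation, the smallest F test p belonged to Stx1a at -0.09 (limma adjusted p = 0.794), Doc2a at -0.02 (limma adjusted p = 0.753) and Sv2b at -0.04 (limma adjusted p = 0.805). The median correlation of the 41 genes was -0.03, beside 0.01 for all genes.

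**Figure D3:**
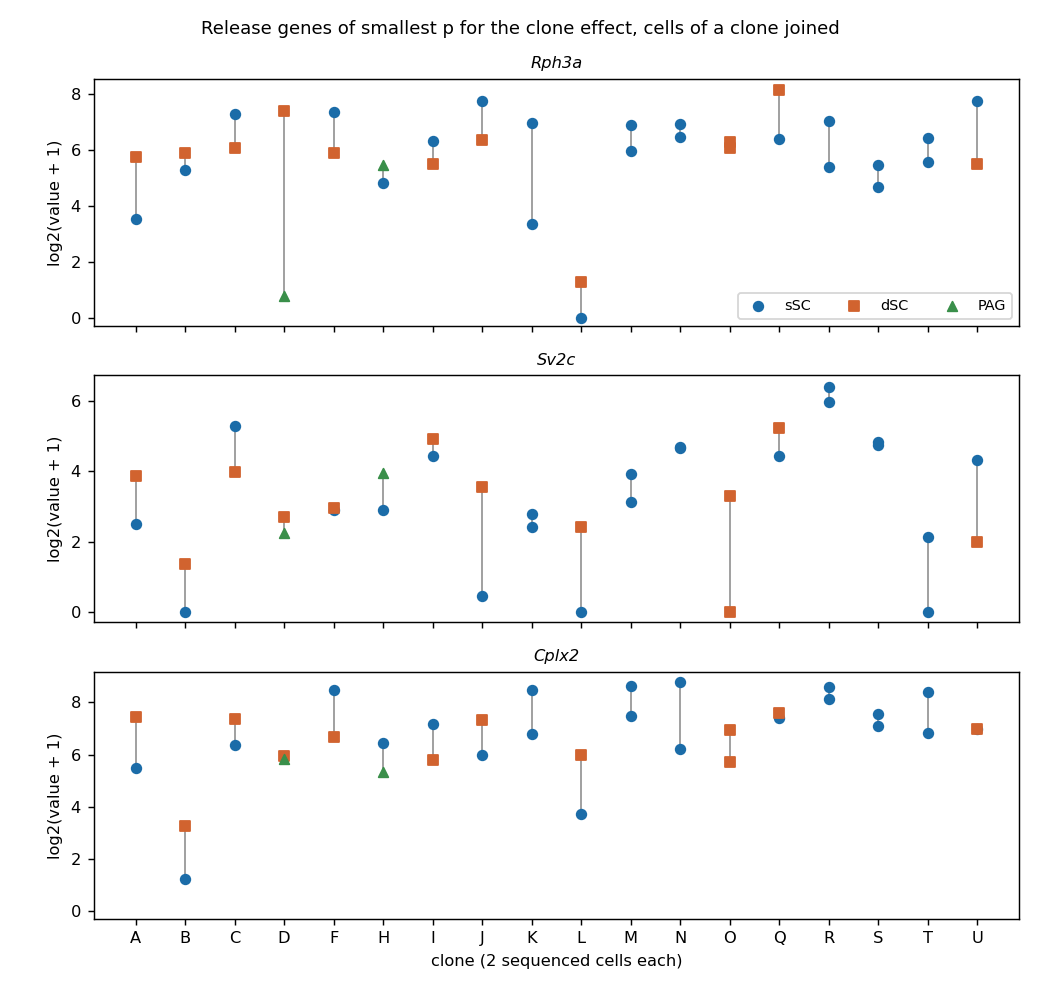
Levels of Rph3a, Sv2c and Cplx2 on the log2(value + 1) scale in the 2 sequenced cells of each of 18 clones, joined by a line and coloured by tissue. Clone L is low in both cells for Rph3a, clone R is high in both for Sv2c, and clone B is low in both for Cplx2.

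The gap between the cells of a clone varied widely among release genes. Rab3a and Snap25 differed by at most 1 on the log2(value + 1) scale in 16 of 18 clones, with median gaps of 0.47 and 0.51. Napb did so in 15 clones, with a median gap of 0.37 and 1 large gap of 8.09 in clone B. Syt1 and Cplx2, though detected in 36 cells, did so in 7 and 5 clones, Unc13a in 2 and Syt17 in 1. In 12 clones Syt17 was detected in only 1 of the 2 cells, as were Syt12 in 11 and Cplx3, Syt6 and Syt9 in 9 each. For Cplx3, 4 clones had it in both cells and 5 in none. A value of 0 in 1 cell may be a missed capture, and the part of this in the gaps was not tested.

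The next comparison followed release genes along the transmitter balance of a cell, the mean log2(value + 1) of the GABA-synthesising enzymes Gad1 and Gad2 minus that of Slc17a6 (the vesicular glutamate transporter). The balance ran from -8.96 to 9.48, with 20 cells above 0 and 16 at 0 or below. Cplx3 and Rab3c had the positive slopes of smallest p and Syt4 the negative one, and 0 of 41 release genes passed in the limma fit (tissue as a covariate, clone as a correlation), against 13 of 14899 genes (0.0873%). At an unadjusted p under 0.05 there were these 3 of 41, against 760 of all genes (5.1%), and 2 of the 3 were positive, against 439 of all genes (2.95%).

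Cplx3 was detected in 14 of the 20 cells with a balance above 0, where it ran from 0 to 1014 with a median of 28.3. It was detected in 3 of the 16 other cells, where the median was 0 and the highest value 79.6. The ranges overlapped, since 6 cells on the Gad side were under 1. The slope was 0.35 per log2 unit of balance (SE 0.085, limma adjusted p = 0.116). Over 16 alternatives the slope lay between 0.25 and 0.64, with limma adjusted p from 0.0657 to 0.806. Some of these replaced the balance by the Gad level, by minus the Slc17a6 level or by a balance with Slc32a1 added. Their slopes are per unit of those measures, so the range is not one of the balance slope alone. The cell with 1014, the clone I sSC cell, also had the highest balance, 9.48. Of the alternatives, only the fit in dSC alone left it out. Within clones, the cell of higher balance had the higher Cplx3 in 8 of 18, the lower in 5, and the values were equal in 5.

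Rab3c, a Rab3 form of vesicles, ran from 22.6 to 349 with a median of 124 in the cells above 0, and from 0 to 127 with a median of 48.6 in the others. The ranges overlapped. Its slope was 0.18 (SE 0.053, limma adjusted p = 0.409), and it was higher in the cell of higher balance in 14 of 18 clones. Syt4 had a median of 160 above 0 and 284 at or below 0, with a slope of -0.19 (SE 0.062, limma adjusted p = 0.611). It was lower in the cell of higher balance in 12 of 18 clones. Syt2 (slope -0.12, SE 0.063, limma adjusted p = 0.976) and Vamp1 (slope -0.08, SE 0.039, limma adjusted p = 0.982) also had negative slopes, with medians of 24.04 and 107 above 0 and 47.6 and 154 at or below 0. Rab3a, the third positive slope by p, had one of 0.03 (SE 0.024, limma adjusted p = 0.999).

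As a description over 36 cells from 18 clones, Spearman's rho with the balance was 0.57 for Rab3c, 0.55 for Cplx3, -0.49 for Syt4, -0.42 for Vamp1 and -0.38 for Syt2. The median slope of the 41 genes was 0.01, beside 0.00 for all genes, and 26 of 41 were positive beside 52.4%. With clone as a block, 1 gene of all passed in place of 13, and 0 release genes. Summed markers had a rho with the balance of -0.06 for microglia, 0.05 for astrocytes, 0.06 for oligodendrocytes, 0.18 for their precursors and -0.24 for endothelium, and their part in these slopes was not tested.

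**Figure D4:**
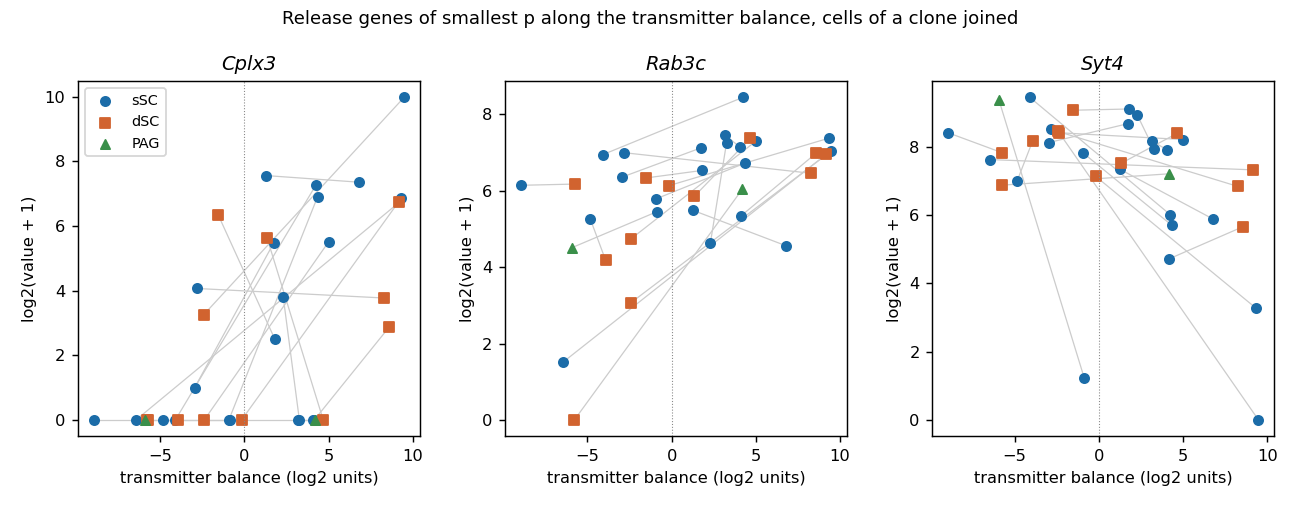
Cplx3, Rab3c and Syt4 on the log2(value + 1) scale against the transmitter balance of each of 36 cells, in log2 units, with positive values for more Gad1 and Gad2 than Slc17a6. Grey lines join the 2 cells of a clone. Cplx3 was detected in 14 of 20 cells to the right of 0 and 3 of 16 to the left or at 0.

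The last comparison followed release genes along the level of Pvalb, the calcium-buffering protein parvalbumin, which ran from 0 to 3057 with a median of 570. By limma on log2(Pvalb + 1), with tissue as a covariate and clone as a correlation, 0 of 41 release genes passed, against 72 of 14901 genes (0.483%). At an unadjusted p under 0.05 there were 9 of 41, all positive, against 1465 of all genes (9.83%), 1323 of them positive (8.88%). Cplx2 had a slope of 0.34 per log2 unit of Pvalb (SE 0.090, limma adjusted p = 0.0697). Pclo had one of 0.28 (SE 0.093, limma adjusted p = 0.186) and Syn1 one of 0.20 (SE 0.074, limma adjusted p = 0.238). The negative slopes of smallest p were those of Vamp2 at -0.08 (SE 0.062, limma adjusted p = 0.747), Syt12 at -0.17 (SE 0.13, limma adjusted p = 0.740) and Syp at -0.08 (SE 0.075, limma adjusted p = 0.772).

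Clone B stood apart on this axis: its 2 cells were both listed at 0 for Pvalb, and one of them was the library with the fewest genes. Without both cells of clone B, a choice made after the data were seen, 0 genes of all passed, the slope of Cplx2 was 0.02 (limma adjusted p = 0.993) that of Syn1 was -0.01 and that of Pclo was 0.20 (limma adjusted p = 0.884). The slopes of Vamp2, Syt12 and Syp were then -0.17, -0.25 and -0.24, with limma adjusted p of 0.789, 0.912 and 0.753. The median slope of the 41 genes went from 0.08 to -0.01, beside 0.07 and -0.04 for all genes. In sSC cells alone 6 of 41 release genes passed by limma, Snap25, Cplx2, Sv2a, Rims2, Pclo and Napb, beside 852 of 14319 genes. Without clone B there, 0 of 41 release genes and 0 of 14280 genes passed. With clone as a block 0 genes passed and the slope of Cplx2 was -0.16. Within clones, the cell with more Pvalb had the higher Cplx2 in 11 of 18, the higher Pclo in 10 and the higher Syn1 in 6. Summed endothelial markers had a rho of 0.50 with Pvalb over 36 cells, and neuron markers one of 0.24, and their part in these slopes was not tested.

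**Figure D5:**
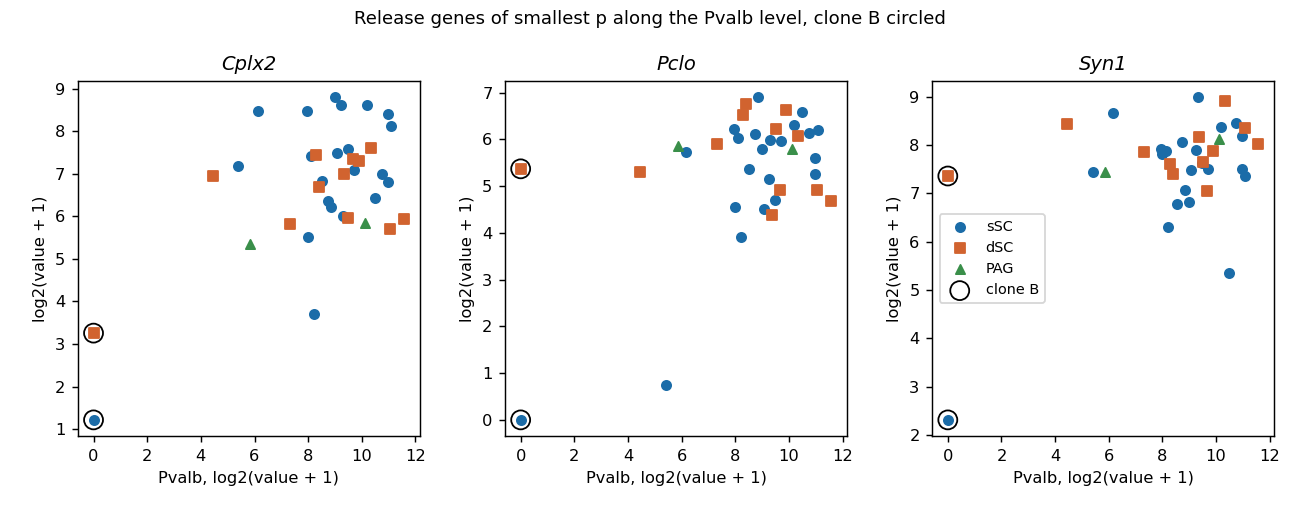
Cplx2, Pclo and Syn1 against Pvalb, both on the log2(value + 1) scale, in 36 cells coloured by tissue, with the 2 cells of clone B circled. Clone B alone sits at 0 on the Pvalb axis, apart from the other 34 cells.

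A wider list of 76 genes for release and recycling, outside the 42, served as a comparison for the pathway. A symbol was matched for 75, of which 71 were tested (69 in the driver fit). By limma, 0 passed between tissues, 0 between drivers, 0 for the clone effect, 1 along the transmitter balance and 0 along Pvalb. The gene that passed was Synpr (synaptoporin, a vesicle membrane protein related to synaptophysin), with a slope of 0.39 per log2 unit of balance (SE 0.071, limma adjusted p = 0.00485). Once clone entered as a block, its slope was 0.41 and it no longer passed (limma adjusted p = 0.228). Nor did Synpr pass in sSC alone (0.41, limma adjusted p = 0.278) or in dSC alone (0.34, limma adjusted p = 0.664). Along minus the Slc17a6 level, which rises as Slc17a6 falls, its slope was 0.53 and it did not pass either (limma adjusted p = 0.191). At an unadjusted p under 0.05 the counts in these comparisons were 5, 1, 5, 2 and 16, beside 5.16%, 4.1%, 7.8%, 5.1% and 9.83% of all genes. The 16 along Pvalb became 4 without both cells of clone B and 4 with clone as a block. The smallest p between tissues belonged to Vamp3 (-2.62, SE 0.91) and Sncg (-2.99, SE 1.16), each with a limma adjusted p of 0.933. Between drivers it belonged to Vamp3 (-4.76, SE 1.12, limma adjusted p = 0.380) and Cacnb4 (1.67, SE 1.00, limma adjusted p = 1.00). For the clone effect Dnm2 and Stx2 had the smallest p of the F test (limma adjusted p = 0.549 and 0.585), with correlations of 0.35 and 0.34.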

How the data were processed

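Single neurons of 18 clones were profiled from polyA RNA, and per the labels' protocols the libraries came from Takara's SMART-Seq Single Cell PLUS kit. The submitters' processing notes name the aligner STAR 2.7.9a, R 4.0.3 and the build GRCm39. For the counter, annotation and strand setting, nothing is given in the sources used here. The values deposited by the authors are a normalised signal under the name TPM exon plus intron, and each cell adds up to 2000000, so plain TPM was not assumed. It keeps no depth, so no counting intervals are given, and detected genes stand in for library quality.

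Symbols came from GENCODE M21 by gene identifier (52083 matched). Genes at 1 or more in 25% of the cells compared were tested on log2(value + 1) with limma 3.58.1 and statmod 1.5.0 in R 4.3.3. The eBayes step used the trend and robust options, p-values were adjusted by Benjamini-Hochberg over all genes tested, and the threshold was 0.05. Tissues and drivers were compared over clone means, clones by a moderated F test, and transmitter balance and Pvalb by slopes. Gad1, Gad2, Slc17a6 and Pvalb were left out of the slopes they define. Promoters were RefSeq GRCm38.p6. Python 3.11.15, numpy 2.4.6, pandas 2.3.3 and matplotlib 3.10.9 served for the rest. The fits were also run on simulated data with independent normal noise per gene and cell. These data held no missed captures, no library of few genes and, outside the clone fit, no levels shared within a clone. They say nothing about how the fits behave under those features.

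The cells of a clone share a progenitor and so an animal by the design, and this pairs sSC with dSC. The main tissue fit took the clone means as independent, and the pairing entered only in the fits with clone as a block. As a check, tissue means were subtracted and the 2 cells of each pair were correlated over all genes tested. These correlations lay from -0.03 to 0.06 in 9 pairs, 0 of them above 0.1. They pool all genes and cannot show that the pairing is small for a single release gene. The genes and lists were chosen with earlier results of these data known. The 3 release genes per direction of smallest unadjusted p in each comparison were given with effect and adjusted p. The 12 central genes were given by level and tissue difference. Release genes that passed only under an alternative were given by name. Other release genes were named by their levels. Of the wider list, those that passed were named, or else the 2 of smallest p per comparison. For Pvalb these are not reported here. Alternatives changed the pseudocount (0.1 and 10), filter, scaling, covariates, block, cells and moderation, and left out clones.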

Additional observations from a re-analysis of the deposited data

Results flagged for a closer look

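In the Sox2-CreER sSC group of 5 clone means, the sSC cell of clone H lay apart from the others for 5 of the 41 release genes tested, all on the low side. Its values on the log2(value + 1) scale were 0 for Syt5 (the nearest other was 6.27), 0 for Syt7 (4.39), 0 for Rims3 (4.59), 0 for Bsn (4.59) and 5.12 for Napb (7.42). In each, the gap to the nearest clone exceeded 0.71 of the group's range, the 95% limit for 5 samples. For normally spread values chance passes this limit in about 1 of 20 such groups, which may not hold for values listed at 0. The share of all genes past this limit was not computed, so the 5 of 41 has no background. The genes share 1 library, in which 6180 genes were detected beside a median of 12058 over all cells.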

How the results depend on the processing

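Of 466 values of named release genes and Synpr under alternatives, 445 kept their direction and side of the threshold, 5 passed it (all along Pvalb), 4 lost it (all Synpr) and 12 changed sign. Apart from Synpr, none of these genes had passed in the main fits, so keeping the side of the threshold says little. In the driver and clone fits, leaving out clone B or its smallest library gave the same fit, and its values are counted under both. Genes passing between tissues were 1 in place of 0 with pseudocount 10, rescaling, quantile normalisation, the clone block, without clone B and in the block without its smallest library. Between drivers there was 1 with pseudocount 10, and leaving out 1 clone gave 0 to 5. For the clone effect, in place of 3, there were 6 (pseudocount 0.1), 60 (no filter) and 1 (no trend or robust). Along the balance, in place of 13, there were 8 (pseudocount 0.1), 1 (clone block), 0 (sSC or dSC alone), 27 (Gad level) and 1 (minus the Slc17a6 level). Along Pvalb, in place of 72, there were 482 (pseudocount 0.1), 0 (pseudocount 10), 30 (no filter), 20 (detected genes as a covariate), 35 (no trend or robust), 852 (sSC alone), 2 (dSC alone) and 0 (the clone block, without the smallest library, without clone B, or sSC without clone B). Release genes passing along Pvalb, in place of 0 of 41, were 4 with pseudocount 0.1 (Cplx2, Sv2a, Pclo and Napb), beside 482 of 14901 genes. There were 6 in sSC alone, beside 852 of 14319 genes. With balance added there was 1 (Cplx2, limma adjusted p = 0.0494), beside 69 of 14901 genes. Under every other alternative there were 0.

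Signs changed in the clone correlation for Doc2a (0.0695) and Sv2b (0.0433) with pseudocount 0.1, and for Cplx2 with quantile normalisation (-0.0896) and without clone B or its smallest library (-0.0345). Along Pvalb they changed with the clone block for Cplx2 (-0.157) and Syn1 (-0.0635), in sSC alone for Syt12 (0.140) and Syp (0.0149), in dSC alone for Pclo (-0.00758), and for Syn1 without clone B (-0.00738, in sSC -0.0422). The causes were not tested. The clone block also ended the call of Synpr (0.407, limma adjusted p = 0.228) and changed no other call of a named gene. Fits in dSC alone had no clone correlation, since 1 clone has a pair there. Leaving out each clone in turn was run for the drivers, whose smaller group has 5 clones. Depth is unknown, so what it limits cannot be given.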

Other observations

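The 2 PAG cells entered the transmitter and Pvalb slopes but none of the tissue, driver or clone tests. The PAG cell of clone D had the highest Snap25 (4008), Rab3a (3319) and Sv2a (821) of all 36 cells and the lowest Syt1 (14.2), and Stx1a, Syt5, Syt6, Syt10, Cplx3 and Sv2b were listed at 0 in it. That of clone H had the highest Vamp1 (333) and Syn2 (364), with Syt10, Syt17, Cplx3 and Rab3b listed at 0. Their summed release genes were 13330 and 11527, above the median of 9110 over all cells, and 35 and 38 release genes were detected in them. These are single cells, with no replicate from their tissue and clone.

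The sSC cell of clone I combined few detected genes (7652) with the highest summed release genes of the 36 cells, 15199. It held the highest Vamp2 (3862), Cplx3 (1014), Napb (408) and Sv2b (146), while Syt2, Syt3, Syt4, Syt6, Syt9, Syt10, Syt12, Rims1, Rims3, Doc2a and Doc2b were listed at 0.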
